A study of Mus musculus with 5 samples.

Results

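The replication-dependent histone genes encode the linker histone H1 and the core histones H2A, H2B, H3 and H4 that package newly copied DNA. They were taken here as the protein-coding genes of GENCODE vM21 (mouse build mm10, which is GRCm38) whose symbols begin with Hist1h, Hist2h, Hist3h or Hist4h, which gave 67 genes. A peak belonged to a gene when its midpoint lay in the gene or in the 3 kb before it, and each peak was counted once. By this rule 55 of the 67 genes had a peak, and they held 49 of the 56615 merged peaks of RNA polymerase II (Pol II). Of the 11874 protein-coding genes with a peak in all, these 55 were the histone members.

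Pol II was mapped by CUT&Tag, in which an antibody bound to chromatin guides a transposase that cuts and tags the DNA next to it. The nuclei came from splenic regulatory T (Treg) cells, sorted as CD3+CD4+Foxp3-YFP+ cells from 8 week old C57BL/6 mice of both sexes pooled, given IL-2c, a complex of 1 µg IL-2 with 5 µg of the anti-IL-2 antibody JES6-1 by which Treg cells multiply in vivo, on 3 days and taken 48 hours afterwards (80000 nuclei per library). Control mice (Ctrl, genotype Foxp3CreSetd2flox/+) carried the Foxp3-driven Cre and 1 floxed copy of Setd2, and knockout mice (KO, genotype Foxp3CreSetd2flox/flox) carried the same Cre and both copies floxed, so that Cre and at least 1 floxed allele were common to both groups and the deletion was limited to cells that express Foxp3. There were 2 libraries per genotype, and the total counts in peaks were 11331274 and 5624680 for Ctrl 1 and Ctrl 2, and 13351007 and 4489646 for KO 1 and KO 2. Per the methods each sort began with the cells of 2 adult littermates combined, and the nuclei of a library are called a biological replicate. Whether the libraries of a genotype came from different pairs of mice is not spelled out, and if they did not, the spread between them would be technical.

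Most genes of this family lack introns and are transcribed in bursts during S phase, when a body of factors gathered by NPAT on the histone clusters is switched on by cyclin E and CDK2. Their mRNAs end in a stem-loop in place of a poly(A) tail. The stem-loop is bound by SLBP, and the transcript is cut just after it by a complex that includes the U7 snRNP. Setd2, the enzyme deleted here, travels with elongating Pol II and trimethylates a lysine in the tail of histone H3, the product of 12 of these genes. The comparison asked whether Treg cells without Setd2 differed from control cells in Pol II at the histone genes.

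The genes lay in 4 places in the genome. The largest cluster, on chromosome 13 (Hist1, from 21715763 to 23934851), had 54 genes, of which 44 had a peak, and 38 peaks. The Hist2 cluster on chromosome 3 (from 96219865 to 96270132) had 10 genes, 8 with a peak, and 8 peaks. Chromosome 11 held Hist3h2ba and Hist3h2a, each with 1 peak, and chromosome 6 held Hist4h4 with 1 peak. Within the chromosome 13 cluster a gap of over 200 kb separated a first block of 23 genes, from Hist1h2bl to Hist1h2bj, from a second block of 31 genes, from Hist1h4h to Hist1h2aa. Neighbouring histone genes often face away from each other across a short shared promoter, and 22 of the 49 peaks belonged to 2 member genes and 2 peaks to 3, while 25 belonged to 1. A shared peak cannot be divided between its genes, because the reads have no strand. A peak can also lie over a neighbour of the gene to which its midpoint assigns it: 9 of the 49 peaks overlapped no member gene, and 6 wholly covered a member gene that the midpoint rule did not give them. Of the 49 peaks, 2 also belonged to a gene that is not a histone gene, namely the Hist3h2a peak (Trim17) and the peak of Hist2h2ac and Hist2h2be (Bola1).

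The members share the stem-loop, a feature that the rule of choice did not use. A 16-base stem-loop of the histone form was searched for in the 120 bases after the last coding base of each gene. It was found in 65 of 67 member genes (97.0%) and in 2 of 21857 other protein-coding genes (0.00915%), which were H2afx and H2bfm, both histone genes outside the naming rule. The 2 members without a match were Hist1h2an and Hist2h2be. The sites below are shown because they carry this shared feature and the way it differs between histone types. They are read from GRCm38 5′ to 3′ along the RNA strand, with 5 flanking bases on each side in lower case and the stem-loop in capitals.
Hist1h1c, chr13:23739507-23739532, + strand: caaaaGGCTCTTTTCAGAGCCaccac
Hist1h3c, chr13:23745042-23745067, − strand: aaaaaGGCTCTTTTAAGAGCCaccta
Hist1h4a, chr13:23760795-23760820, − strand: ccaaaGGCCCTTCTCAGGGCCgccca
Hist2h4, chr3:96262934-96262959, − strand: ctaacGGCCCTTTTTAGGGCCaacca
Hist4h4, chr6:136803993-136804018, − strand: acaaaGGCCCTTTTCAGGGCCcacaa
H2afx, chr9:44335235-44335260, + strand: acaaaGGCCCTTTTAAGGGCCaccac
The form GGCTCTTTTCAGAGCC was the commonest, in 41 genes, none of which encoded H4. The form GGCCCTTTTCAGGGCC was found in 8 genes, all of which encoded H4. The form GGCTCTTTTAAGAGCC was found in 9 genes of the H1, H2A, H2B and H3 types.

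The promoters were compared next, since 48 of the 49 peaks had their midpoint within 3 kb of the start of a protein-coding transcript. The exception was a peak of Hist1h2be (chr13:23585000-23586146), which lay inside the annotated gene and over its stem-loop site (chr13:23585526-23585551). The start of this gene is annotated far from there, at 23621124. RefSeq promoters (GRCm38.p6, from 250 bases before to 50 bases after the start) were matched for 62 of the 67 genes, and were searched on both strands for 3 motifs of histone promoters. These were TATAAA, which places Pol II at the start, then CCAAT, a site for the factor NF-Y, and ATTTGCAT, the octamer bound by the product of Pou2f1. A match of 1 motif was allowed to overlap a match of another. The promoters of divergent neighbours can overlap, so 1 site can count for both genes, as a TATAAA does for Hist1h2ak and Hist1h2bn. The counts are thus of promoters with a match and not of distinct sites. TATAAA was found in 35 of 62 member promoters (56.5%) and in 13.6% of all 32851 promoters. CCAAT was found in 53 of 62 (85.5%) against 37.4% of all promoters, and in every matched H1, H2A, H2B and H3 promoter but in 3 of 12 H4 promoters. The octamer was found in 13 of 62 (21.0%) against 1.74% of all promoters, in 7 of 18 H2A and 6 of 16 H2B promoters and in no H1, H3 or H4 promoter. A match is a run of letters and not a measured binding site. The 150 bases before the start are given for 5 genes whose peaks had the highest counts per kb of their cluster, 5′ to 3′ along the gene, with every match to the 3 motifs on either strand in capitals.
Hist1h1c, chr13:23738657-23738806, + strand: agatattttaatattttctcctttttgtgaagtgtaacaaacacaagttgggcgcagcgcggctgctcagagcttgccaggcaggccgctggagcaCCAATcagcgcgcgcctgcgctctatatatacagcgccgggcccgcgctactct
Hist1h4a, chr13:23761250-23761399, − strand: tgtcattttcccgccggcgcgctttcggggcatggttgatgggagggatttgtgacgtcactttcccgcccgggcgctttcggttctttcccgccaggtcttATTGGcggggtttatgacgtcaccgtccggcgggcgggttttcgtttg
Hist2h2aa1, chr3:96245347-96245496, + strand: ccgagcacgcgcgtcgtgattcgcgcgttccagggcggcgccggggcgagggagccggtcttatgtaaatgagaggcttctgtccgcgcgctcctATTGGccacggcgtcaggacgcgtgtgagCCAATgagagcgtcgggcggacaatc
Hist3h2a, chr11:58954535-58954684, + strand: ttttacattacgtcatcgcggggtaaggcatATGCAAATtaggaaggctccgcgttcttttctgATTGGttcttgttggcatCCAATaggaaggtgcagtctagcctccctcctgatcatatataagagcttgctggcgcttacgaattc
Hist4h4, chr6:136804432-136804581, − strand: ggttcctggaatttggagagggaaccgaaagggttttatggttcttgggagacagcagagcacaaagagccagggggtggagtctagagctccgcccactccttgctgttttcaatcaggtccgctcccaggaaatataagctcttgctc
The H1 gene Hist1h1c has 1 CCAAT box in this stretch, the H2A gene Hist3h2a has the octamer and both orientations of the CCAAT box, and the H4 gene Hist4h4 has none of the 3 motifs.

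Peaks lay over most of the family. Merged peaks covered 30 of the 67 genes over their whole length and 36 over more than 90% of it. The peaks of the histone genes ranged from 246 to 4421 bp, with a median of 1152 bp against 570 bp for all peaks. The mean normalized count per kb of peak had a median of 187 over the 49 histone peaks and 113 over all 56615, and ranged from 94.3 to 456. The histone median stood at the 84.5th percentile of all peaks and at the 76.5th percentile of the 24300 promoter peaks. These sets differ in peak length. Among peaks of 1 kb or more, the median per kb was 215 over 29 histone peaks and 168 over 7498 promoter peaks. A normalized count is the read count of a peak divided by the size factor of its library. As these are bulk nuclei, fewer cells with Pol II on a gene and less Pol II per cell cannot be told apart.

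Of the 12 genes without a peak by the midpoint rule, 4 lay wholly under a peak whose midpoint was elsewhere (Hist1h3i, Hist1h2bg, Hist2h2ab and Hist2h3b). The other 8 were not touched by any peak, and they fell into 2 kinds. Hist1h1t, Hist1h2ba and Hist1h2aa encode H1, H2B and H2A forms known from the testis, and 0%, 7.81% and 0% of the 150-base windows in them occurred more than once in the histone clusters. Hist1h2ao, Hist1h4m, Hist1h4n, Hist1h2ap and Hist1h2br lie in a inverted repeat of the first block, and between 72.3% and 100% of their windows occurred more than once. Reads that fit several copies equally well are lost from uniquely mapped reads, the only ones the authors kept, and the part of this in the missing peaks was not tested. The repeat is shown by the 150 bases before the starts of Hist1h2bq and Hist1h2br, which lie on opposite strands and were identical at 150 of 150 bases. Capitals mark CCAAT in either orientation.
Hist1h2bq, chr13:21810200-21810349, − strand: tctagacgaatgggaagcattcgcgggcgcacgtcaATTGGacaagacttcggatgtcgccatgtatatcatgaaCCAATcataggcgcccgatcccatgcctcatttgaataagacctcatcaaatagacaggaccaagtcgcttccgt
Hist1h2br, chr13:21833593-21833742, + strand: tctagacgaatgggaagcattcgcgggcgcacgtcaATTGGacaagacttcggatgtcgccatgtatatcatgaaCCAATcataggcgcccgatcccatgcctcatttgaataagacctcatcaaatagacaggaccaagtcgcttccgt
Hist1h2bq itself counts among the 55 genes with a peak only through a 343 bp peak that begins 2041 bases before its start and 91 bases beyond the end of Hist1h4m. The H2A genes Hist2h2aa2 and Hist2h2aa1 on chromosome 3 also repeat each other, with 93.2% and 83.8% of windows found more than once, and had their peaks mainly before the gene. In all, 8 genes had over 70% of their windows repeated and 17 genes had none.

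**Figure D1:**
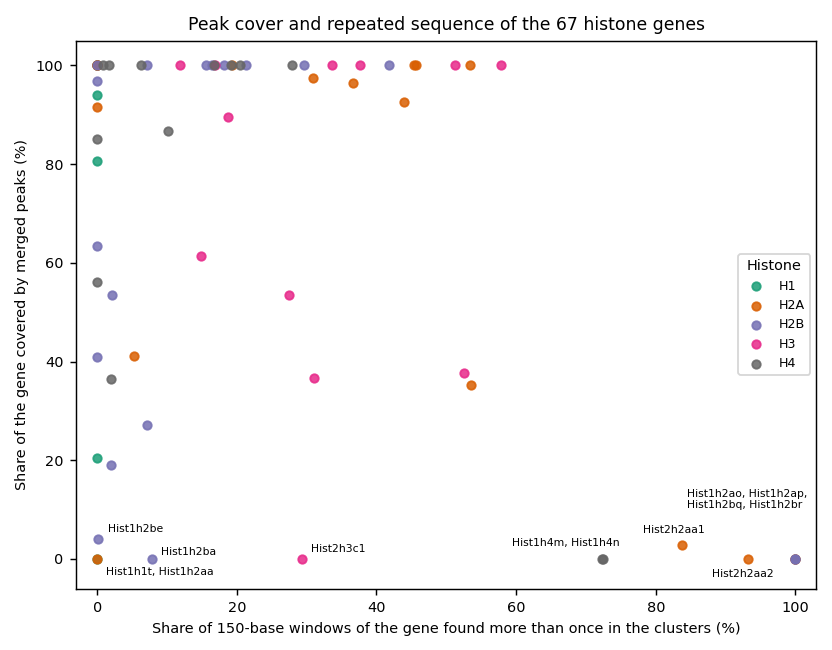
Each point is 1 of the 67 histone genes, coloured by histone type, with the share of its 150-base windows that occur more than once in the histone clusters (%) on the x axis and the share of the gene under merged peaks (%) on the y axis. The genes with over 70% of repeated windows sit at or near 0% cover, as do the testis forms Hist1h1t, Hist1h2ba and Hist1h2aa with few or no repeated windows. Hist1h2be is annotated as a gene of 37455 bp, and its 2 peaks cover 4.08% of it. The peak at the annotated start covers 1.02%, and the other peak, far from that start, covers 3.06%.

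No histone peak passed the test between genotypes. With the DESeq2 Wald test over all 56615 peaks, 0 of 49 histone peaks had an adjusted p below 0.05, and the smallest adjusted p among them was 1.00. Of all 56615 peaks, 0 passed at that level too, so this is no trait of the histone peaks. At an unadjusted p below 0.05 the number was again 0 of 49, where 1.53% of all peaks passed. The edgeR quasi-likelihood test gave 0 of 49 at both levels, with a smallest unadjusted p of 0.0783. Of all 56615 peaks, 27 passed in edgeR at an adjusted p below 0.05, and 3.63% at an unadjusted p below 0.05. Log2 fold changes, KO relative to Ctrl, ran from −0.43 to 0.42, with a median of −0.11 over the histone peaks and −0.01 over all peaks. The standard errors ran from 0.212 to 0.701 with a median of 0.276. For 41 of the 49 peaks the 95% interval lay within a log2 change of 1 in either direction, and for the other 8 it reached past that size. Of these, 5 were peaks under 500 bp, and the others were at Hist1h3b, Hist3h2ba and Hist1h1d, the last with the standard error of 0.701.

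The fold change was above 0 for 13 of 49 histone peaks, against 48.9% of all peaks. Among peaks of 1 kb or more, it was above 0 for 5 of 29 histone peaks, against 43.9% of promoter peaks. The count of 13 of 49 turned on single libraries. It was 34 without Ctrl 1 and 32 without KO 2, and 5 without Ctrl 2 and 9 without KO 1. The median log2 fold change over the 49 peaks was 0.12, 0.06, −0.31 and −0.33 in the same order. Both KO libraries lay on the same side of both Ctrl libraries at 8 of 49 histone peaks, 7 lower and 1 higher in KO, against 32.3% of all peaks.

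**Figure D2:**
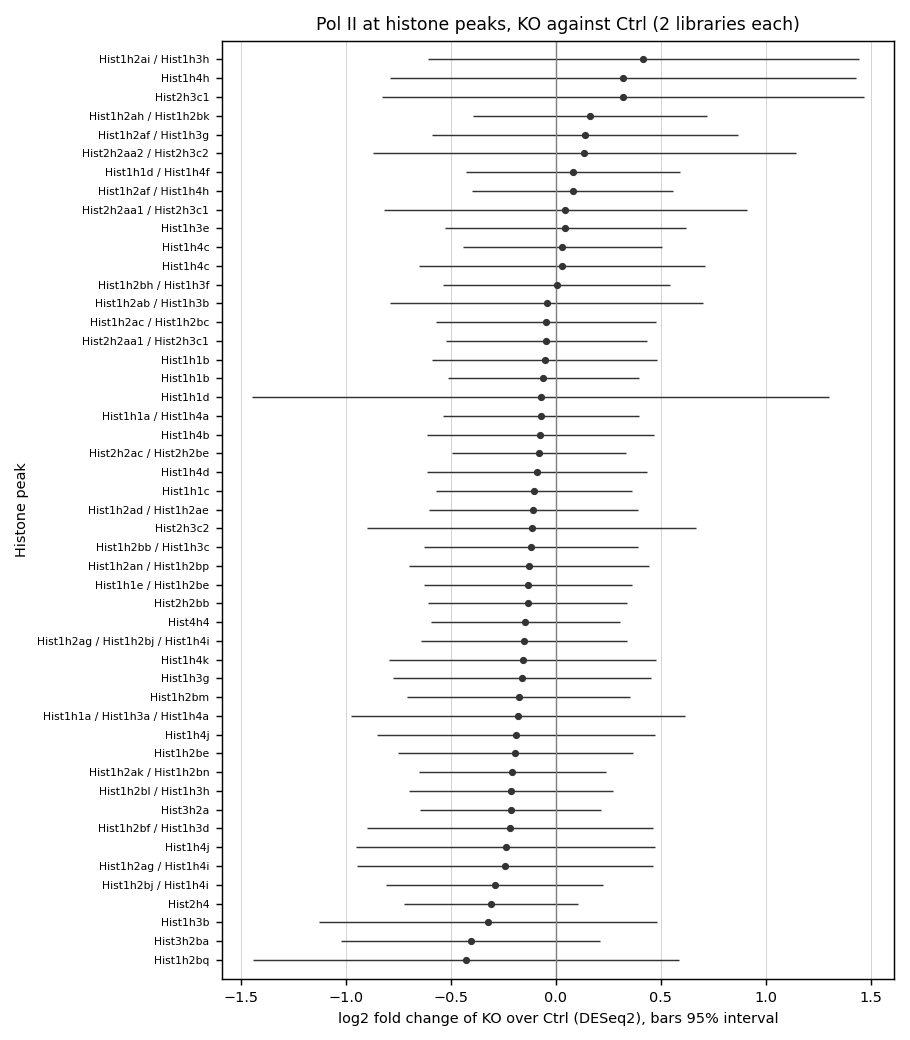
The x axis gives the DESeq2 log2 fold change (KO relative to Ctrl) for each of the 49 histone peaks, named by their genes and sorted by value, with bars for the 95% interval (2 libraries per genotype). Every interval crosses 0, the values run from −0.43 to 0.42, and 13 of 49 lie above 0.

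Summed over the distinct peaks of each cluster, the normalized count on chromosome 13 was 13478 and 9594 in Ctrl 1 and Ctrl 2, and 12252 and 9332 in KO 1 and KO 2. The KO libraries lay inside or just under the range of the Ctrl libraries, and the log2 ratio of the group means was −0.10. The chromosome 3 cluster gave 2754, 2300, 2485 and 2115 in the same order, with a log2 ratio of −0.14. The 2 genes of chromosome 11 gave 1034, 791, 848 and 683, with a log2 ratio of −0.25. Hist4h4 on chromosome 6 gave 384, 347, 349 and 310, with a log2 ratio of −0.15. In each of the 4 places Ctrl 1 was the highest library and KO 2 the lowest, and the genotypes overlapped. Within chromosome 13 the log2 ratio was −0.15 for the first block (15 peaks) and −0.07 for the second (23 peaks). The share of each library's counts that fell in histone peaks was 0.217% for Ctrl 1 (95% Wilson interval 0.214% to 0.219%) and 0.168% for Ctrl 2 (0.165% to 0.172%), beside 0.201% for KO 1 (0.199% to 0.203%) and 0.163% for KO 2 (0.159% to 0.166%). These intervals cover counting error only. The mean was 0.192% ± 0.0343 in Ctrl and 0.182% ± 0.0270 in KO (SD, n = 2 each), a difference smaller than the spread between the libraries of a genotype.

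The peak with the most Pol II per kb in the chromosome 13 cluster was at an H1 gene. The peak of Hist1h1c (chr13:23738513-23740877), which encodes a linker histone, held 1174 and 745 normalized counts in Ctrl 1 and Ctrl 2, and 987 and 800 in KO 1 and KO 2, or 392 per kb on average. Both KO libraries lay between the Ctrl libraries, and the log2 fold change was −0.10 (SE 0.238, DESeq2 unadjusted p = 0.664). The next by count per kb (chr13:23760011-23762744) wholly covered the H4 gene Hist1h4a and the H3 gene Hist1h3a and ended before the H1 gene Hist1h1a, and it held 1036, 716, 966 and 698 normalized counts in the same order. Its deeper libraries, Ctrl 1 and KO 1, were close to each other, as were Ctrl 2 and KO 2, and the log2 fold change was −0.07 (SE 0.238, unadjusted p = 0.761). Of the other H1 genes, Hist1h1b had a peak over the gene with a log2 fold change of −0.06. A second peak assigned to it began 1768 bases before its start, wholly covered the H3 gene Hist1h3i and gave −0.05. A peak over most of Hist1h1a gave −0.18 and was assigned to Hist1h3a and Hist1h4a as well. Hist1h1e shared a peak with Hist1h2be at −0.13, which covered 94.1% of Hist1h1e and 1.02% of the annotated Hist1h2be. Hist1h1d had a peak inside the gene at −0.07, and a further one before it, at 0.08, wholly covered the H4 gene Hist1h4f. The Hist1h1d peak held 330, 150, 299 and 157 normalized counts. Its Ctrl libraries differed by a log2 ratio of 1.13, the widest gap in Ctrl among the histone peaks of 1 kb or more.

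H2A and H2B genes mostly form divergent pairs, and so were largely read as shared peaks. The highest count per kb of the family, 456, was at the peak before Hist2h2aa1 and Hist2h3c1 (chr3:96244892-96245462), with 262 and 266 normalized counts in Ctrl 1 and Ctrl 2, and 248 and 264 in KO 1 and KO 2. The 4 libraries were alike there, with a log2 fold change of −0.05 (SE 0.244, unadjusted p = 0.847). The H2A gene Hist3h2a (chr11:58953924-58956458) held 849, 638, 700 and 579 normalized counts, with KO 1 between the Ctrl libraries, and a log2 fold change of −0.22 (SE 0.221, unadjusted p = 0.328). Its neighbour Hist3h2ba, an H2B gene (chr11:58948155-58949308), held 185, 153, 148 and 104. Both KO libraries were below both Ctrl libraries there, and its log2 fold change of −0.41 (SE 0.315, unadjusted p = 0.197) was the lowest among the peaks with a mean of at least 50 normalized counts.

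The 3 highest fold changes among peaks of that depth were also at H2A genes. The shared peak of Hist1h2ah and Hist1h2bk (chr13:22035426-22036577) held 307 and 185 normalized counts in Ctrl 1 and Ctrl 2, and 283 and 271 in KO 1 and KO 2. Ctrl 2 was the low library, and the log2 fold change was 0.16 (SE 0.284, unadjusted p = 0.567). The peak of Hist1h2af and Hist1h3g (chr13:23533778-23534290) held 92.0, 70.3, 95.7 and 83.5, with overlapping genotypes and a log2 fold change of 0.14 (SE 0.372, unadjusted p = 0.707). The peak of Hist2h2aa2 and Hist2h3c2 (chr3:96240401-96240767) held 68.3, 28.9, 64.8 and 42.6, and again Ctrl 2 was the low library, with a log2 fold change of 0.14 (SE 0.515, unadjusted p = 0.791). Of the windows of this peak, 18.8% occurred more than once.

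The remaining pairs gave similar values. Peaks shared by an H2A and an H2B gene had log2 fold changes of −0.21 (Hist1h2ak and Hist1h2bn), −0.13 (Hist1h2an and Hist1h2bp), −0.05 (Hist1h2ac and Hist1h2bc) and −0.08 (Hist2h2ac and Hist2h2be, a peak that also covered the H2A gene Hist2h2ab). The 4421 bp peak of Hist1h2ad and Hist1h2ae, which also covered the H2B genes Hist1h2bg and Hist1h2bf, gave −0.11. The peak of Hist2h2bb gave −0.13 and wholly covered the H3 gene Hist2h3b too. Peaks assigned to a single H2B gene and over no other member gave −0.18 (Hist1h2bm), −0.19 (Hist1h2be) and −0.43 (Hist1h2bq, with a standard error of 0.519 and at most 44.1 normalized counts in a library). The 3 peaks around Hist1h2ag, Hist1h2bj and Hist1h4i gave −0.29 (over Hist1h4i), −0.15 (over Hist1h2ag and Hist1h2bj) and −0.24 (over no member gene). A 268 bp peak before Hist1h2ai and Hist1h3h, over neither gene, gave the highest value of all, 0.42, with a standard error of 0.524 and 25.9 to 44.3 normalized counts per library.

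Among peaks with a mean of at least 50 normalized counts, the H3 and H4 genes included the lowest fold changes after Hist3h2ba. The H3 gene Hist1h3b (chr13:23751921-23752945) held 156 and 86.8 normalized counts in Ctrl 1 and Ctrl 2, and 128 and 63.0 in KO 1 and KO 2. KO 1 lay between the Ctrl libraries, and the log2 fold change was −0.32 (SE 0.411, unadjusted p = 0.431). The H4 gene Hist2h4 (chr3:96261927-96264622) held 740, 630, 599 and 502. Both KO libraries were below both Ctrl libraries, and its log2 fold change of −0.31 (SE 0.212, 95% interval −0.73 to 0.10) had the smallest unadjusted p of the family, 0.142. The H4 gene Hist4h4 (chr6:136803370-136805292) had a log2 fold change of −0.15 (SE 0.230, unadjusted p = 0.526), with KO 1 between the Ctrl libraries. Among the other H3 genes, peaks gave −0.22 for Hist1h3d, which is the gene under a peak assigned to Hist1h2bf as well, −0.22 for a peak over Hist1h3h, Hist1h2bl and Hist1h2ai, −0.16 for Hist1h3g, −0.12 for Hist1h3c with Hist1h2bb, −0.04 for a peak before Hist1h3b that lay over the H2A gene Hist1h2ab, 0.00 for Hist1h3f with Hist1h2bh and 0.04 for Hist1h3e. The other H4 peaks gave −0.24 and −0.19 (Hist1h4j), −0.16 (Hist1h4k), −0.09 (Hist1h4d), −0.07 (Hist1h4b), 0.03 for both peaks of Hist1h4c, and 0.32 for a 339 bp peak before Hist1h4h, which had 0.08 at a longer peak over the gene that was assigned to Hist1h2af as well. On chromosome 3, short peaks in Hist2h3c2 and before Hist2h3c1 gave −0.12 and 0.32, and a peak further before Hist2h2aa1 and Hist2h3c1 gave 0.05.

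**Figure D3:**
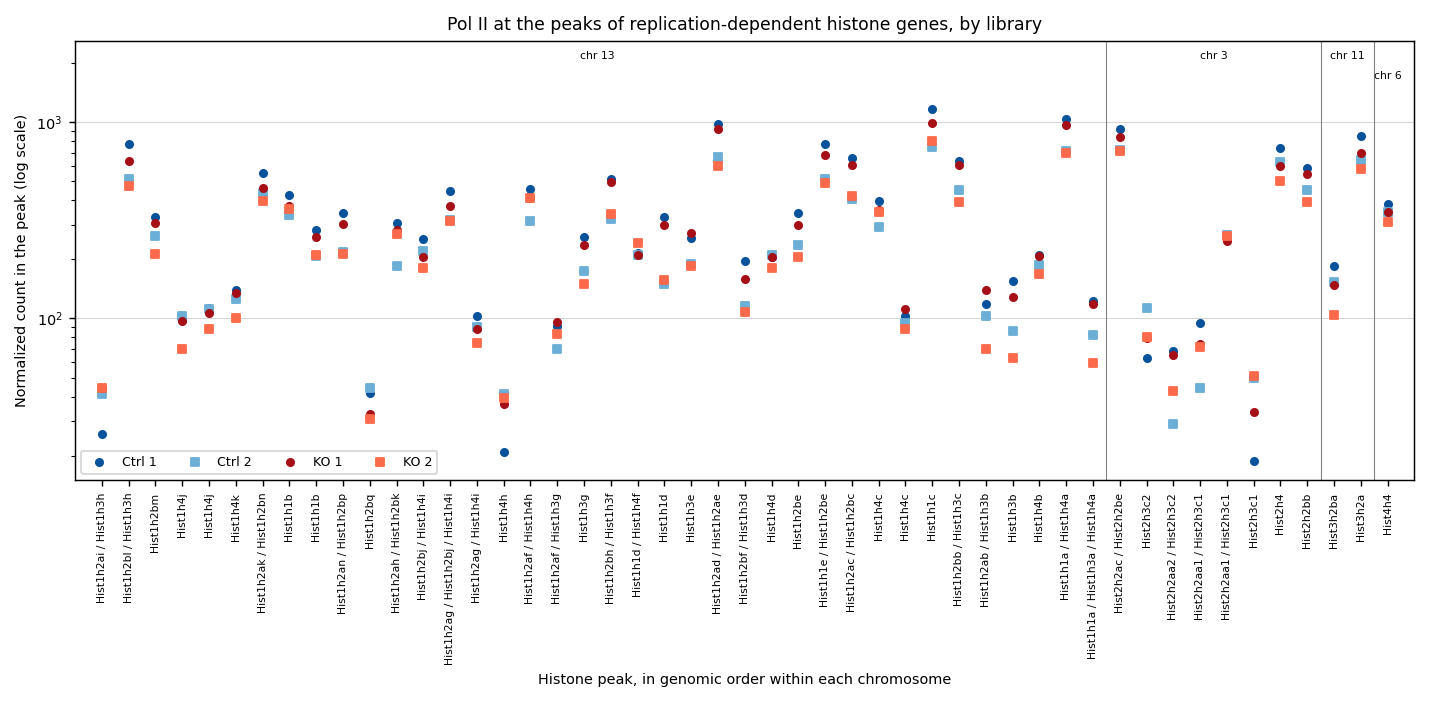
The y axis gives the normalized count of each histone peak on a log scale for the 4 libraries (blue, Ctrl; red, KO; circles, library 1; squares, library 2), and the x axis the 49 peaks in genomic order within chromosomes 13, 3, 11 and 6. Circles sit above squares at most peaks in both colours, Ctrl 1 is the highest library at 36 of 49 peaks, and blue and red overlap at 41 of 49.

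Counts were also summed over the peaks of each gene and tested over all 11874 genes. None of the 55 histone genes passed at an adjusted p below 0.05, where 0.109% of all genes did, and none passed at an unadjusted p below 0.05, where 1.53% of all genes were higher and 1.48% lower in KO. The smallest unadjusted p was 0.0937, at Hist2h4 (log2 fold change −0.29, SE 0.174). The median log2 fold change was −0.07 for the 5 H1 genes with a peak, −0.05 for 14 H2A genes, −0.13 for 15 H2B genes, −0.08 for 10 H3 genes and −0.07 for 11 H4 genes, beside −0.01 for all genes. Because neighbours share peaks, these are not independent genes, and the 5 medians lie closer together than the standard error of a single gene, whose median was 0.224.

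Within each genotype, the histone peaks separated the deeper library from the shallower one. Ctrl 1 was above Ctrl 2 at 41 of 49 peaks and KO 1 above KO 2 at 43, after scaling for depth. Both held at 40 of 49 histone peaks, against 30.2% of all peaks. The median log2 ratio of library 1 over library 2 was 0.39 in Ctrl and 0.30 in KO over the histone peaks, −0.01 in both over all peaks, and 0.05 and 0.04 over promoter peaks. Long peaks shared part of this. Over the 7498 promoter peaks of 1 kb or more the median ratios were 0.14 and 0.12, and both genotypes had library 1 higher at 54.2%. Over the 29 histone peaks of 1 kb or more the ratios were 0.53 and 0.46, and 28 of 29 had library 1 higher in both genotypes. The exception was the peak of Hist1h1d and Hist1h4f. Of the 20 histone peaks under 1 kb, 12 had library 1 higher in both. In total, normalized counts over all histone peaks were 1.35 times as high in Ctrl 1 as in Ctrl 2 and 1.28 times as high in KO 1 as in KO 2, whereas the log2 ratio of KO over Ctrl was −0.11. The gap within a genotype was thus larger than the difference between genotypes.

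Other measures moved with this gap in part. Ctrl 1 and KO 1 were the deeper libraries, with 11331274 and 13351007 counts. Promoter peaks held 55.1% and 53.8% of counts in Ctrl 1 and Ctrl 2, and 54.9% and 53.6% in KO 1 and KO 2. The median GC content was 51.0% for histone peaks, 51.1% for all peaks and 54.1% for promoter peaks, and for peaks of 1 kb or more 50.7% for histone peaks against 55.2% at promoters. Over all peaks GC content and the library ratio had a Pearson correlation of −0.072 in Ctrl and −0.079 in KO, across peaks that share their libraries. The part of depth, of promoter signal, of base composition and of the share of cells in S phase in the gap was not tested.

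**Figure D4:**
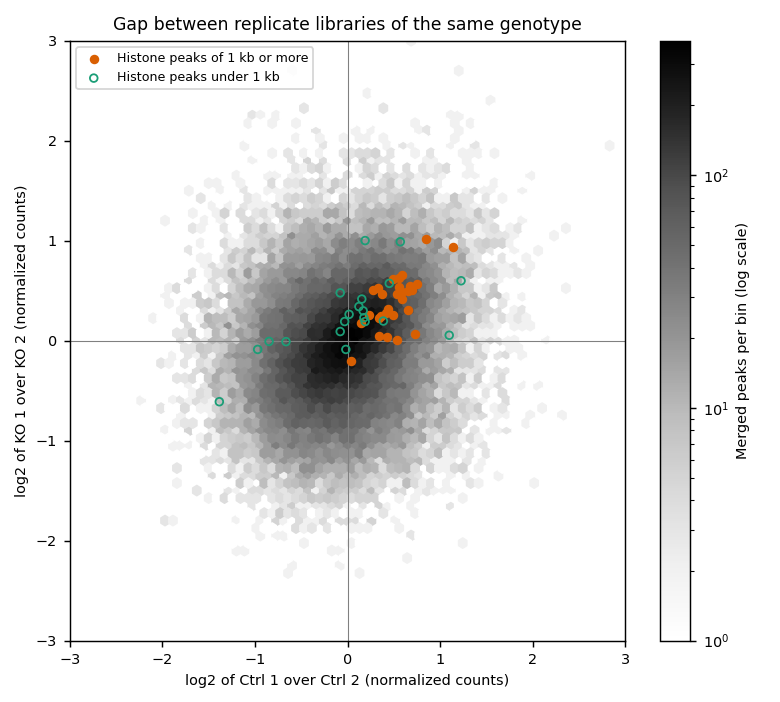
The x axis gives the log2 ratio of normalized counts of Ctrl 1 over Ctrl 2 and the y axis that of KO 1 over KO 2. Grey bins count all merged peaks (log scale), filled orange points are histone peaks of 1 kb or more and open green points those under 1 kb. The grey cloud is centred near 0 on both axes, while 28 of the 29 long histone peaks lie in the upper right.

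The genes that serve the histone genes were read from lists of known function. Of 28 genes of the histone locus body and of histone mRNA processing, all had a peak and none passed at an adjusted p below 0.05. At an unadjusted p below 0.05, 2 of 28 were higher and none lower, where 1.53% of all genes were higher and 1.48% lower. The median log2 fold change of the list was −0.03. Npat, the organizer of the histone locus body, held 435 and 412 normalized counts in Ctrl 1 and Ctrl 2, and 371 and 367 in KO 1 and KO 2. Both KO libraries were lower, with a log2 fold change of −0.20 (SE 0.190, DESeq2 unadjusted p = 0.291). Casp8ap2, which encodes the FLASH subunit of the processing complex, held 419, 343, 351 and 353, with overlapping genotypes and a log2 fold change of −0.12 (SE 0.203). Slbp, the stem-loop binding protein, held 1117, 1144, 1133 and 1102, the steadiest of the 3, with a log2 fold change of −0.02 (SE 0.140). The 2 genes with a low unadjusted p were Ccne1, which encodes cyclin E1 (238, 206, 323 and 293 normalized counts, log2 fold change 0.47, SE 0.226, unadjusted p = 0.0380), and E2f4, a cell cycle transcription factor (201, 198, 266 and 303, log2 fold change 0.51, SE 0.232, unadjusted p = 0.0291). Both were higher in the 2 KO libraries than in the 2 Ctrl libraries, and the adjusted p was 1.00 for each. The median ratio of library 1 over library 2 in this list was 0.03 on the log2 scale in either genotype, against 0.40 and 0.35 over the 55 histone genes.

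A further list held 11 histone genes taken as replication-independent, among them H2afx, although it carries the stem-loop shown above. Of these, 9 had a peak and none passed at an unadjusted p below 0.05, where 1.53% of all genes were higher and 1.48% lower. The median log2 fold change of this list was −0.03. H3f3a and H3f3b both encode H3.3, the form of H3 that is laid down independently of replication. H3f3a held 1555 and 1292 normalized counts in Ctrl 1 and Ctrl 2, and 1395 and 1138 in KO 1 and KO 2, with overlapping genotypes and a log2 fold change of −0.17 (SE 0.158, unadjusted p = 0.296). H3f3b held 3436, 2780, 2913 and 2423, with KO 1 between the Ctrl libraries and a log2 fold change of −0.22 (SE 0.147, unadjusted p = 0.136). With the replicate number as a block its DESeq2 unadjusted p was 0.00563 and its adjusted p 0.0584. The libraries numbered 1 were again the higher ones, and the median ratio of library 1 over library 2 in this list was 0.18 in Ctrl and 0.14 in KO on the log2 scale.

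None of the 20 histone chaperone and chromatin assembly genes, all with a peak, passed at an unadjusted p below 0.05. Of all genes, 1.53% were higher and 1.48% lower at that level. The median log2 fold change of the chaperone list was −0.06. Hjurp, the chaperone of the centromeric H3 form, had a log2 fold change of −0.28 and an unadjusted p of 0.0700, which was 0.0450 in edgeR and 0.0378 with the replicate number as a block. Of 40 genes of DNA replication and S phase, 34 had a peak and none passed at an adjusted p below 0.05. At an unadjusted p below 0.05, 1 of 34 was higher and none lower, beside 1.53% of all genes higher and 1.48% lower. The median log2 fold change of this list was 0.01. The 1 gene was Rpa2, a subunit of the protein that coats single-stranded DNA, with 475, 418, 689 and 608 normalized counts (log2 fold change 0.54, SE 0.179, adjusted p = 0.588). Mki67, a marker of cycling cells, held 165, 157, 169 and 171, with a log2 fold change of 0.08 (SE 0.266, unadjusted p = 0.778). The median ratio of library 1 over library 2 in the S phase list was 0.02 in Ctrl and −0.03 in KO on the log2 scale, beside a median within 0.01 of 0 for all genes.

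Markers of the labelled cell type had the most Pol II of the marker lists. All 8 Treg and T cell markers had a peak, and Foxp3 held 1883, 1653, 1860 and 1647 normalized counts, with a log2 fold change of −0.01 (SE 0.140). Of markers of other cells, 0 of 5 for CD8 T and NK cells, 2 of 5 for B cells (Cd79a and Cd79b), 1 of 5 for myeloid cells (Cd14) and 1 of 5 for erythroid cells (Klf1) had a peak. The summed B cell markers held 88.5 to 139 normalized counts per library. Cd14 held 68.7, 118, 41.3 and 88.3, and Klf1 held 211, 196, 224 and 189. The Treg and T cell markers summed to 28224 to 33804, of which Ikzf2 with its 60 peaks held 14477 to 17903, and the lowest of them, Tnfrsf18, held 208, 185, 207 and 229, close to Klf1. Setd2 had 9 peaks along the gene, with 512, 518, 455 and 570 normalized counts and a log2 fold change of −0.02 (SE 0.186, unadjusted p = 0.923). Which of these lie in the floxed exons is not given in the sources used here, so they do not check the deletion.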

How the data were processed

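Pol II CUT&Tag libraries of sorted splenic Treg cells (2 Ctrl, 2 KO) were analysed, and the IgG library is not analysed here. The authors trimmed paired 150 bp reads, mapped them to mm10 with Bowtie2, kept uniquely mapped reads, removed duplicates, used MACS2 with the IgG library as control (p of 0.01) for peaks and merged these with bedtools. Tool versions are not given in the sources used here. The deposited table holds raw read counts per merged peak, with 0 columns left without a sample. All 21 chromosomes fit within GRCm38.

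Counts were compared with the DESeq2 1.42.0 Wald test (R 4.3.3) over all peaks, and over sums of the peaks of each protein-coding gene, two-sided, with genotype as the only term and Benjamini-Hochberg adjustment. Normalized counts were divided by median-of-ratios size factors of 1.39 (Ctrl 1), 0.726 (Ctrl 2), 1.68 (KO 1) and 0.587 (KO 2), refitted for gene sums. Ratios between libraries had 0.5 added to each count. The test was checked on simulated data. Alternatives were edgeR 4.0.16, TMM (edgeR) and total-count scaling, a mean count of at least 10, the replicate number as a block, peaks assigned by overlap with the gene or 1 kb before it, and leaving out each library.

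Values per library are given for the 2 peaks with the highest count per kb on chromosome 13 and the highest in each other cluster, the 3 highest and 3 lowest fold changes with a mean of at least 50, and peaks with an unadjusted p below 0.05. Other values are given for single peaks chosen after they were seen. The members and lists were chosen with earlier results of these data known. Depth limits the precision of peaks, whose raw counts ran from 18 to 1661.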

Additional observations from a re-analysis of the deposited data

How the results depend on the processing

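None of the histone peaks or genes passed at an adjusted p below 0.05 under edgeR, TMM or total-count scaling, the count filter or the overlap assignment (45 peaks and 58 genes). None passed under the replicate block either, but there DESeq2 gave no adjusted p to peaks or genes of lower count, such as the Hist1h3b peak. Rbbp4, with 1445 normalized counts in Ctrl 1, also had none, and every histone gene held fewer in that library. The block fit therefore could not call genes of such counts. Over all peaks the count was 0 with DESeq2 (864 at an unadjusted p below 0.05), 27 with edgeR, and 0 to 5 with 1 library left out. With the replicate number as a block it was 25, and 911 of the 56615 peaks had an unadjusted p below 0.05. Of the histone peaks 1 of 49, Hist2h4, had an unadjusted p below 0.05 under the block (DESeq2, 0.0498), against 0 of 49 without it. Under the block 1 of 9 replication-independent histone genes (H3f3b) and 1 of 20 chaperone genes (Hjurp) also passed at that level, as Hjurp did with edgeR. The share of all genes passing under the block or with edgeR is not given here, so these counts say nothing about the lists. The Treg marker Ctla4 passed under the block as well, with a DESeq2 unadjusted p of 0.000951 and an adjusted p of 0.0165. Without the block its DESeq2 unadjusted p was 0.0996. The numbers do not pair the libraries by design: same-numbered libraries deviated together over all peaks (Pearson r of 0.233 across peaks) and over the 49 histone peaks (0.626), but with only 2 pairs this is a hint from the data. Between same-numbered libraries each of the 4 cluster totals was lower in KO, by log2 ratios from −0.29 to −0.04. Total-count scaling moved the median of the histone peaks from −0.11 to −0.08. Cluster totals and the share of counts in histone peaks moved by less than the spread between replicates under every alternative run. With 2 libraries per group, leaving 1 out shifts a group mean by less than that spread in any case, so those runs do not test stability. The sign of the chromosome 13 total changed with the library left out, from −0.32 without Ctrl 2 to 0.17 without Ctrl 1. The totals on chromosomes 11 and 6 stayed below 0. The cause of these changes was not tested. At this depth the median standard error of a histone peak was 0.276 on the log2 scale.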
